A study of Mus musculus with 18 samples.

Results

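The 10 genes described here encode the hormones and secretory granule proteins by which enteroendocrine cells of the gut are recognised: Gcg, Pyy, Nts, Cck, Sct, Sst, Tac1, Tph1, Chga and Chgb. They were chosen by symbol with earlier results of these data known, and all 10 were found among the 47729 gene identifiers in the deposited tables. Their levels were read in 18 libraries of polyadenylated RNA from epithelial cells that had been sorted by flow cytometry from mouse ileum, the most distal stretch of the small intestine. The groups were lactating females on day 7 of lactation, virgin males, and virgin females of matched age, with 6 libraries each. The labels name no mutant allele and no agent in any group. They give standard chow for all mice, one kind (RM3) while breeding and another (RM1) otherwise. If the lactating females were on the breeding chow, diet and lactation cannot be told apart in the comparisons with them. The sources used here do not give strain, age in weeks, sorting gates, litter size or sequencing batch, and nothing in the labels says that each library came from a separate mouse. P-values therefore measure the spread between these libraries.

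Enteroendocrine cells are rare secretory cells scattered along the crypts and villi of the gut, and they release peptides or serotonin from dense-core granules when they sense nutrients or other signals. They arise from crypt progenitors through the transcription factor Neurog3. In the mouse small intestine a cell that starts with Gcg, or with Tac1 and Tph1, can change its hormones as it moves up the villus, where Sct, Pyy and Nts become more prominent. The proglucagon gene Gcg encodes GLP-1 and GLP-2, and GLP-2 is known as a growth factor for the intestinal lining.

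The lactating female libraries held 37984403 to 46046333 counts, the virgin male libraries 34577104 to 47748407 and the virgin female libraries 36508736 to 49039300. Levels are given as CPM, read counts normalised to a library's scaled total. The 6 epithelial markers summed to 9575 to 15786 CPM in lactating females, 9744 to 11957 CPM in virgin males and 9498 to 16640 CPM in virgin females. The neuronal gene Vip, the glial gene Sox10 and the mast cell genes Cma1, Fcer1a and Ms4a2 had no count in any of the 18 libraries. Neurons also make Tac1 and Sst, and mast cells also make Tph1. Without Ret, which epithelial cells also contain, the remaining neuronal markers summed to 0.206 to 0.856 CPM in lactating females, 0.204 to 0.857 CPM in virgin males and 0.28 to 0.803 CPM in virgin females. Without Kit, which had 3.27 to 28.2 CPM over the 18 libraries, the remaining mast cell markers summed to 0.0289 to 0.556 CPM in lactating females. They summed to 0.0202 to 0.118 CPM in virgin males and 0.0208 to 0.148 CPM in virgin females. Whether mast cells added to the Tph1 counts was not tested. Virgin female 2 and virgin male 6 stood apart from the rest by the transcript Gm42418, which overlaps a ribosomal RNA copy and reached 31048 CPM and 29980 CPM there, against 1230 to 4477 CPM elsewhere. Virgin male 6 also held 5.85 CPM of Xist, the RNA of the inactive X chromosome, against 0.135 to 0.283 CPM in the other virgin males. Where leaving out both libraries ends a call of the main edgeR model, this is stated beside it. The DESeq2 fit and the fits with a covariate were not repeated without them, so their calls were not checked in this way.

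All 10 transcripts were detected in every library, the lowest count being 68 for Tac1 in a virgin male. To compare genes with each other, CPM was divided by the exonic length in kilobases. On that per-length scale the means over 18 libraries were 74.5 for Nts, the neurotensin precursor, and 70.2 for Sct, the secretin precursor. Pyy (peptide YY) followed at 36.5, Chgb (chromogranin B) at 31.4, Gcg at 31.0, Sst (somatostatin) at 20.3 and Chga (chromogranin A) at 18.5. Cck (cholecystokinin) stood at 6.28, Tac1 (the substance P precursor) at 1.02 and Tph1, the rate-limiting enzyme of serotonin synthesis outside the brain, at 0.632 CPM per kilobase. By group means the order was the same in virgin males and virgin females. In lactating females 3 neighbouring pairs stood the other way round, Sct above Nts, Gcg above Chgb and Chga above Sst. Several neighbours could not be separated. In lactating females Sct exceeded Nts in 3 of 6 libraries, Pyy exceeded Gcg in 3 and Chga exceeded Sst in 3. In virgin males Pyy exceeded Chgb in 3 and Chgb exceeded Gcg in 4 of 6 libraries. In virgin females Chgb exceeded Gcg in 3 and Gcg exceeded Sst in 3 of 6 libraries. By contrast Cck exceeded Tac1 in 6 of 6 libraries of each group. The per-length level assumes that reads cover all annotated exons evenly, and the models of Tph1 (6172 bases) and Tac1 (3399 bases) are the longest of the 10, while that of Pyy is 631 bases.

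In the GENCODE M21 annotation of GRCm38 none of the 10 genes overlaps another annotated gene. The peptide hormone genes on the minus strand are Gcg (ENSMUSG00000000394) at chr2:62474530-62483650, Pyy (ENSMUSG00000017311) at chr11:102106676-102107832, Nts (ENSMUSG00000019890) at chr10:102481756-102490486, Cck (ENSMUSG00000032532) at chr9:121489824-121495694, Sct (ENSMUSG00000038580) at chr7:141278330-141279133 and Sst (ENSMUSG00000004366) at chr16:23889573-23890958. Tph1 (ENSMUSG00000040046), also on the minus strand, lies at chr7:46644641-46672537. On the plus strand are Tac1 (ENSMUSG00000061762) at chr6:7554879-7565834, Chga (ENSMUSG00000021194) at chr12:102554969-102565028 and Chgb (ENSMUSG00000027350) at chr2:132781278-132795079.

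The upstream sequences of 6 members are shown here because these members form the pairs described below that varied together most closely between libraries. Each is read 5′ to 3′ on the gene's own strand from RefSeq (GRCm38.p6) and ends just before the annotated start, and capitals mark a match to one of 4 short motifs searched on both strands.
Pyy, chr11:102107833-102108082, minus strand: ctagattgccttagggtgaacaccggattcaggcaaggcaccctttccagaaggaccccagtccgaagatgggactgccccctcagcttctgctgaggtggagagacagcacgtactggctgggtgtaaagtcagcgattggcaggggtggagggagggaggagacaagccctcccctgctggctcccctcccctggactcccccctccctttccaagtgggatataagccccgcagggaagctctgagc
Sct, chr7:141279134-141279383, minus strand: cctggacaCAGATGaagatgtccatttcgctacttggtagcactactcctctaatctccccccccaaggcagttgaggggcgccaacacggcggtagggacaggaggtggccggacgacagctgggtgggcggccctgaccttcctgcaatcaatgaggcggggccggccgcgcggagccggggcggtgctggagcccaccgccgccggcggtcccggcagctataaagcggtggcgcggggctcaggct
Nts, chr10:102490487-102490668, minus strand: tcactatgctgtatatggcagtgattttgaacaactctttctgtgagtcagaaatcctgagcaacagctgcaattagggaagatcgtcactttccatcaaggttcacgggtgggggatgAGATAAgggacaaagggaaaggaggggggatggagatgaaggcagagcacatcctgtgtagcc
Gcg, chr2:62483654-62483903, minus strand: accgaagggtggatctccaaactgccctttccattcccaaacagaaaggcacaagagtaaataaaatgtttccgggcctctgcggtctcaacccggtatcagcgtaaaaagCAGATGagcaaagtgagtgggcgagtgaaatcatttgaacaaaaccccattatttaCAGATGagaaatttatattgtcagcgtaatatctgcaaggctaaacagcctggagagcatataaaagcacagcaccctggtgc
Cck, chr9:121495695-121495944, minus strand: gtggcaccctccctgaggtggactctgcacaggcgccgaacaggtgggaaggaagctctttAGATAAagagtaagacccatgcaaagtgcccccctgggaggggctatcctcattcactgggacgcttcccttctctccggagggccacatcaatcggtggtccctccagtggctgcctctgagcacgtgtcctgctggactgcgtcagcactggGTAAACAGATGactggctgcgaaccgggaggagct
Chga, chr12:102554691-102554940, plus strand: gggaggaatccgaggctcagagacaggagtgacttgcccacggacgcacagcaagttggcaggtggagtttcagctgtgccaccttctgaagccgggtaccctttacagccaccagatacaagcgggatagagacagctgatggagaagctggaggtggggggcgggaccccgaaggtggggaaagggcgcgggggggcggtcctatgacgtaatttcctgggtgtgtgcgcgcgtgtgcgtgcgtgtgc
The motifs were searched in windows of 300 bases, 250 before and 50 after the RefSeq start, which all 10 members have. The E-box CAGATG (reverse CATCTG), of the kind bound by NeuroD-type factors, was present in 4 members, Gcg, Cck, Sct and Tac1, and in 17.2% of 32851 mouse promoter windows. Gcg held it at 139 and again at 83 bases before the start, and Sct at 242. The GATA motif AGATAA (reverse TTATCT) was in Nts, Cck and Tac1 and in 11.2% of all windows. The forkhead core TGTTTAC (reverse GTAAACA) was in Cck alone among the 10 and in 3.65% of all windows, and there it overlaps the E-box. The cyclic AMP response element TGACGTCA, which reads the same on both strands, was in Sst at 48 bases and in Chgb at 72 bases before the start, and in 1.79% of all windows. Neither Pyy nor Chga held any of the 4. The window of Chgb is not shown, because GENCODE places it inside the first exon. The shared strings do not sort the members into the pairs described below: Pyy, Sct and Nts had no motif in common. GC content of these windows ran from 45.0% in 1 of the 2 Tph1 starts to 72.7% in Chgb, against a median of 52.7% over all promoters.

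In lactating females 9 of the 10 transcripts had higher estimated levels than in virgin females, and no member passed the test. The median log2 fold change was 0.61 over the members, against -0.003 over the 15572 genes tested. The members were chosen with earlier results of these data known, so values over all genes are given as background and not as a test. By edgeR's quasi-likelihood test with Benjamini-Hochberg adjustment over all genes tested, 0 of 10 members were called at an adjusted p under 0.05, and 0.0578% of all genes were called. At an unadjusted p under 0.05, 6 of 10 members were higher (Gcg, Tac1, Chga, Chgb, Tph1 and Sct), against 3.4% of all genes. DESeq2 called 3 members higher, namely Gcg, Tac1 and Chga, and 0.302% of all genes. Against virgin males, all 10 estimates were positive with a median of 0.57, against -0.008 over all genes, and edgeR called 1 of 10, namely Gcg, where 0.764% of all genes were called. At an unadjusted p under 0.05, 6 of 10 were higher there, against 10.5% of all genes, and DESeq2 called 3 (Gcg, Tac1 and Chga), against 2.11% of all genes called higher. The 2 comparisons share the lactating libraries, so they are not independent of each other. In bulk RNA, more cells of a type and more RNA per cell cannot be told apart. In the joint test of any difference among the 3 groups, edgeR called 0 of 10 members and 0.462% of all genes, with Gcg nearest at an adjusted p of 0.0517. At an unadjusted p under 0.05, 6 of 10 members passed the joint test, against 10.9% of all genes, and DESeq2 called 4 members (Gcg, Tac1, Chga and Chgb) and 1.73% of all genes.

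**Figure D1:**
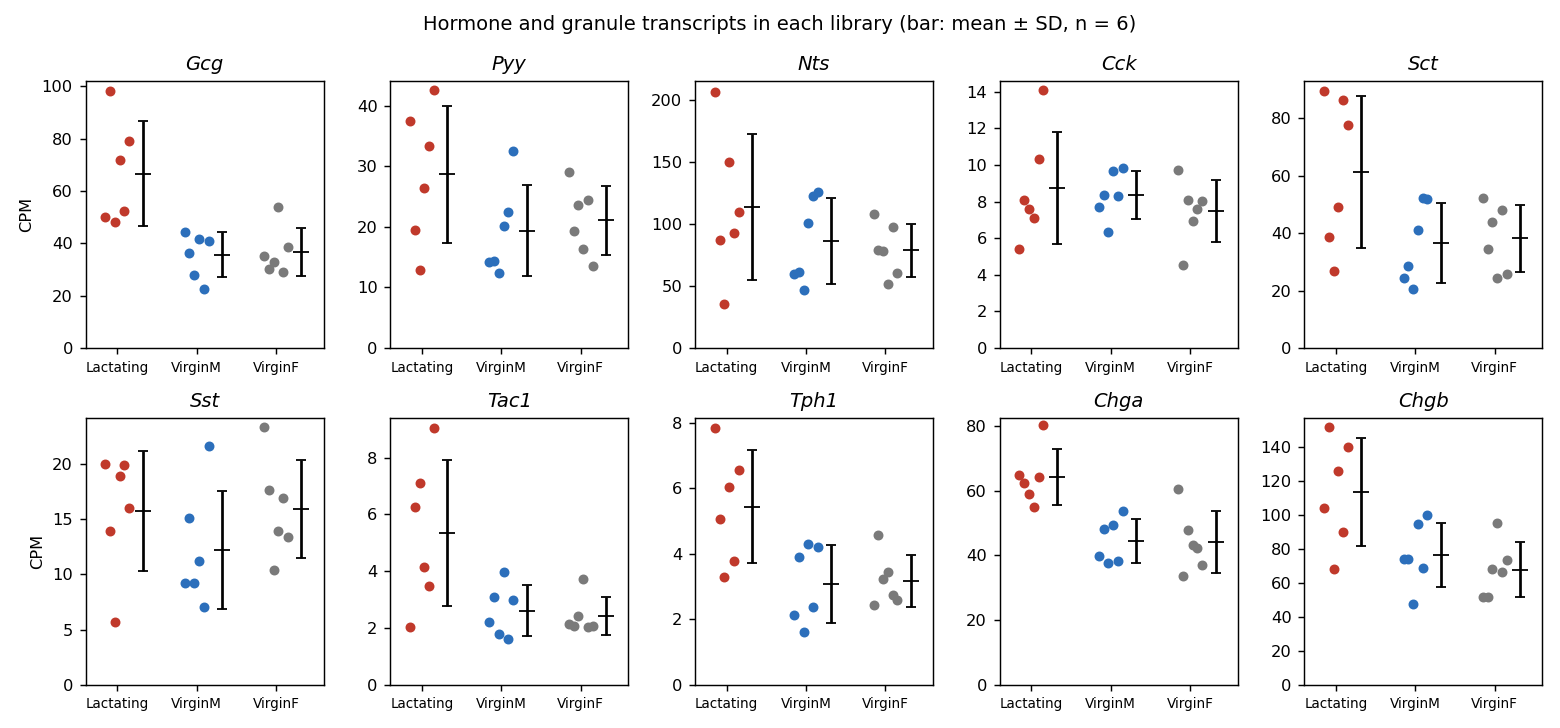
Level of each of the 10 transcripts in CPM (vertical axis, from 0) in every library of lactating females, virgin males and virgin females, with the mean and SD of 6 libraries beside the points. Gcg and Chga in lactating females lay above every virgin male library, while Cck and Sst overlapped throughout.

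Gcg had the smallest p of the 10 in both comparisons with lactating females. Its level was 48.1, 62.2 and 98.2 CPM (lowest, median and highest) in lactating females, 22.5, 38.7 and 44.5 CPM in virgin males, and 29.2, 34.0 and 53.9 CPM in virgin females. Every lactating library exceeded every virgin male library, and 3 of 6 exceeded the highest virgin female library, number 4. The means were 66.6 ± 20 CPM in lactating females, 35.7 ± 8.67 CPM in virgin males and 36.7 ± 9.11 CPM in virgin females (mean ± SD, n = 6 each). Against virgin males Gcg rose with a log2 fold change of 0.90 (SE 0.20, edgeR adjusted p = 0.046), and against virgin females the estimate was 0.86 (SE 0.20, edgeR adjusted p = 0.189, DESeq2 adjusted p = 0.0173). The call against virgin males lay close to the threshold. It was lost without any one of 14 of the 18 libraries (lactating female 2, 4, 5 or 6, any virgin male, or virgin female 2, 3, 5 or 6; log2 fold change 0.75 to 0.97, edgeR adjusted p = 0.0506 to 0.114). It was also lost when both libraries that stood apart were left out (0.94, adjusted p = 0.088), and when only the 2 groups were fitted (0.90, adjusted p = 0.063).

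Pyy, the other hormone of ileal L cells, did not separate the groups. It was 12.8, 29.9 and 42.5 CPM (lowest, median and highest) in lactating females, 12.4, 17.3 and 32.5 CPM in virgin males, and 13.6, 21.4 and 29.1 CPM in virgin females. The lowest lactating library, number 3, lay below every virgin female library. The log2 fold change was 0.57 (SE 0.28, edgeR adjusted p = 0.321) against virgin males and 0.44 (SE 0.28, edgeR adjusted p = 0.883) against virgin females. The 95% interval against virgin females ran from -0.14 to 1.02.

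Nts, the neurotensin gene, and Sct, the secretin gene, varied widely among lactating libraries. Nts was 35.3, 101 and 207 CPM (lowest, median and highest) in lactating females, 46.7, 81.3 and 126 CPM in virgin males, and 51.7, 78.6 and 108 CPM in virgin females. The lactating group thus held both the highest and the lowest library of all 18 for Nts, and the coefficient of variation was 51.7% there, against 40.2% in virgin males and 27.1% in virgin females. Sct was 26.7, 63.3 and 89.4 CPM in lactating libraries, 20.6, 34.8 and 52.3 CPM in virgin male libraries, and 24.5, 39.2 and 52.1 CPM in virgin female libraries. Lactating libraries 1, 5 and 6 lay above every virgin library for Sct and the other 3 lay among them. The log2 fold change of Sct against virgin females was 0.68 (SE 0.30, edgeR adjusted p = 0.732) and that of Nts was 0.52 (SE 0.33, edgeR adjusted p = 0.888). Against virgin males they were 0.75 (SE 0.30, edgeR adjusted p = 0.255) for Sct and 0.40 (SE 0.33, edgeR adjusted p = 0.526) for Nts.

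Cck and Sst, the hormones of I cells and D cells, had the estimates nearest to 0. Cck was 5.42, 7.83 and 14.1 CPM (lowest, median and highest) in lactating females, 6.33, 8.34 and 9.83 CPM in virgin males, and 4.53, 7.82 and 9.71 CPM in virgin females. Sst, the inhibitory hormone of the family, was 5.71, 17.4 and 20 CPM in lactating libraries, 7.07, 10.2 and 21.6 CPM in virgin male libraries, and 10.4, 15.4 and 23.3 CPM in virgin female libraries. For both genes the groups overlapped. The log2 fold change against virgin females was 0.22 for Cck (95% interval -0.20 to 0.65, edgeR adjusted p = 0.929) and -0.02 for Sst (95% interval -0.62 to 0.58, edgeR adjusted p = 0.999). Against virgin males it was 0.06 for Cck (edgeR adjusted p = 0.881, negative without lactating female 6 or virgin male 3) and 0.36 for Sst (edgeR adjusted p = 0.51). The width of these intervals does not allow the levels to be called equal.

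Tac1 and Tph1, which mark the serotonin-producing enterochromaffin cells, were the 2 least abundant members and had the largest estimates beside Gcg. Tac1 was 2.03, 5.22 and 9.03 CPM (lowest, median and highest) in lactating females, 1.60, 2.59 and 3.98 CPM in virgin males, and 2.04, 2.11 and 3.73 CPM in virgin females. Of the lactating libraries, 4 of 6 lay above every virgin female library, and lactating female 1 lay just below the lowest of them. Its log2 fold change was 1.14 (SE 0.31, edgeR adjusted p = 0.297, DESeq2 adjusted p = 0.043) against virgin females and 1.03 (SE 0.30, edgeR adjusted p = 0.135, DESeq2 adjusted p = 0.0322) against virgin males. Tph1 was 3.30, 5.57 and 7.85 CPM in lactating libraries, 1.61, 3.14 and 4.29 CPM in virgin male libraries, and 2.43, 2.98 and 4.59 CPM in virgin female libraries. Every lactating library exceeded the virgin female mean and 4 of 6 exceeded the highest virgin female library. The log2 fold change of Tph1 was 0.78 (SE 0.26, edgeR adjusted p = 0.542) against virgin females and 0.82 (SE 0.26, edgeR adjusted p = 0.17) against virgin males. Their counts, 68 to 316 per library for Tac1 and 79 to 294 for Tph1, were the lowest of the 10.

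The granins Chga and Chgb are proteins of the granule core that most enteroendocrine cells contain. Chga was 55.1, 63.2 and 80.2 CPM (lowest, median and highest) in lactating females, 37.5, 44.0 and 53.7 CPM in virgin males, and 33.5, 42.8 and 60.6 CPM in virgin females. Lactating females did not overlap virgin males for Chga, and 4 of 6 lay above the highest virgin female, number 1. The coefficient of variation of Chga, the lowest of the 10 in each group, was 13.4% in lactating females, 15.2% in virgin males and 21.6% in virgin females. Its log2 fold change was 0.54 (SE 0.14, edgeR adjusted p = 0.227, DESeq2 adjusted p = 0.043) against virgin females and 0.53 (SE 0.14, edgeR adjusted p = 0.0796, DESeq2 adjusted p = 0.0147) against virgin males. Chgb was 68.4, 115 and 152 CPM in lactating libraries, 47.8, 74.1 and 100 CPM in virgin male libraries, and 51.5, 67.0 and 95.5 CPM in virgin female libraries. The log2 fold change of Chgb was 0.74 (SE 0.20, edgeR adjusted p = 0.322) against virgin females and 0.57 (SE 0.20, edgeR adjusted p = 0.214) against virgin males. Counting by overlap, 2 of the 10 members (Gcg and Chga) did not overlap between lactating females and virgin males, both being higher in lactating females, against 0.873% of all genes. None of the 10 did so against virgin females, where 0.148% of all genes were higher without overlap.

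**Figure D2:**
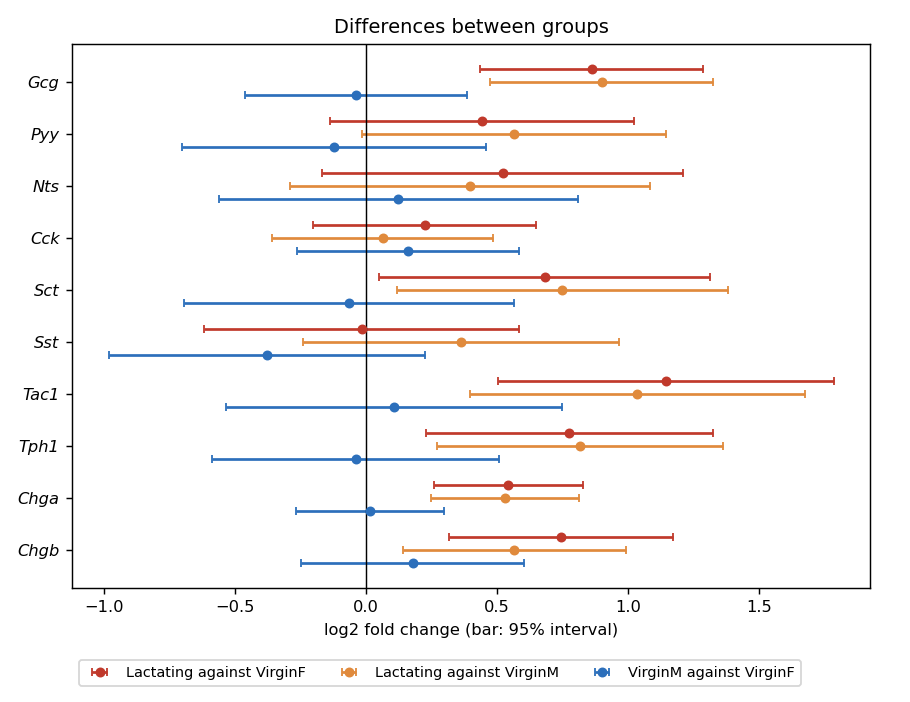
Log2 fold change (horizontal axis) of each transcript in the 3 comparisons, from edgeR, with its 95% interval as a bar. The intervals of Gcg, Sct, Tac1, Tph1, Chga and Chgb lie above 0 in both comparisons with lactating females, and every interval of virgin males against virgin females spans 0.

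Between virgin males and virgin females no member passed the test. Of the 10 estimates, 5 were positive and 5 negative, with a median log2 fold change of -0.01, against -0.01 over all genes. The edgeR test called 0 of 10 members, where 0.0835% of all genes were called. At an unadjusted p under 0.05, 0 of 10 members passed, against 8.32% of all genes in either direction, and DESeq2 called 0, against 0.193% of all genes. The estimate farthest from 0 was that of Sst, -0.38 (SE 0.29, edgeR adjusted p = 0.611), with 12.2 ± 5.34 CPM in virgin males and 15.9 ± 4.45 CPM in virgin females (mean ± SD, n = 6 each). Gcg was at -0.04 (95% interval -0.46 to 0.39) and Chga at 0.01 (95% interval -0.27 to 0.30).

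Markers of position along the crypt to villus axis also differed in their estimates between the groups, and their values are given beside the hormone results. The 6 villus tip enterocyte genes had a median log2 fold change of 1.04 in lactating females against virgin females and 1.244 against virgin males, with 0 of 6 called by edgeR in either. They summed to 1751, 6941 and 19509 CPM (lowest, median and highest) in lactating females, 1114, 3484 and 5498 CPM in virgin males, and 1823, 5137 and 7328 CPM in virgin females. The 8 crypt and cycling genes had a median log2 fold change of -0.06 against virgin females and -0.37 against virgin males, with all 8 negative against virgin males and 0 called. With the villus tip score as a covariate, the log2 fold change of Gcg was 0.98 (edgeR adjusted p = 0.0438) against virgin females and 1.09 (adjusted p = 0.00862) against virgin males. With the crypt score in its place it was 0.90 (edgeR adjusted p = 0.0234) and 1.11 (adjusted p = 0.00349). Tac1 reached 1.31 (edgeR adjusted p = 0.0308) against virgin males with the villus tip score and 1.32 (adjusted p = 0.0351) with the crypt score, and was not called against virgin females with either. Nts, Sct, Pyy and Sst had smaller estimates against virgin males with either score than without. Nts was 0.02 with the villus tip score and 0.04 with the crypt score, and 0.40 without a score. Sct was 0.34 and 0.27 in the same order, and 0.75 without. Pyy was 0.34 and 0.22, and 0.57 without. Sst was 0.26 and 0.12, and 0.36 without. Against virgin females, Nts was 0.33 with the villus tip score and 0.45 with the crypt score, and 0.52 without. None of these estimates was called by edgeR with or without a score. Chga, Chgb, Tph1 and Cck were not called by edgeR with either score against virgin males or virgin females, and their estimates with a score are not given here. Why estimates moved with a score was not tested. Each score is the mean log2 CPM of its list.

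Within groups, 3 sets of members varied together from library to library. Correlations were computed over 18 libraries on log2 CPM after each group's mean was subtracted, so that they do not use the differences between groups. For correlations without some libraries, the group means of all 18 libraries were kept. The libraries left out therefore still enter through those means. All transcripts of a library share its cells and its scaling. How many pairs among all genes vary as closely was not computed. The counts of pairs below are therefore not shown to be particular to the members. The median Pearson r of the 45 pairs was 0.36, and 8 pairs lay below 0. By permuting libraries within groups 100000 times, two-sided, 5 pairs had an adjusted p under 0.05 over the 45 by Pearson's r and 6 by Spearman's rho, all positive. The sixth, Pyy and Chga, had r = 0.60 and rho 0.67 (permutation adjusted p = 0.0548 and 0.0272), and it joins a member of the first set below to one of the third. Without both libraries that stood apart, virgin female 2 and virgin male 6, the 5 Pearson correlations were 0.64 to 0.96 and that of Pyy and Chga was 0.59.

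The closest set was Pyy, Sct and Nts. Pyy and Sct had r = 0.95 (Spearman's rho 0.911, permutation p = 1e-05 for r, the smallest these permutations can give, and 3e-05 for rho, adjusted 0.00045 and 0.00135). The correlation was 0.96 in lactating females, 0.93 in virgin males and 0.96 in virgin females, and 0.94 without the 2 libraries farthest from the median. Nts followed both, with r = 0.85 to Pyy (rho 0.806, permutation p = 0.00013 and 0.00037, adjusted 0.0021 and 0.00555) and r = 0.85 to Sct (rho 0.829, permutation p = 0.00014 and 0.0003, adjusted 0.0021 and 0.00555). Without the 2 farthest libraries these were 0.77 and 0.78. The low values of lactating female 3 (12.8 CPM for Pyy, 26.7 CPM for Sct and 35.3 CPM for Nts) and the high values of lactating female 1 (37.4, 89.4 and 207 CPM in the same order) show the shared movement. As printed above, the upstream sequences of these 3 genes held no common motif among those searched.

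The second pair was Gcg and Chgb, with r = 0.78 (rho 0.794, permutation p = 0.00082 and 0.0007, adjusted 0.00846 and 0.00765). It was 0.90 in lactating females, 0.62 in virgin males and 0.78 in virgin females, and 0.81 without the 2 farthest libraries. Gcg and Tac1 had r = 0.63 (rho 0.662, permutation adjusted p = 0.082 and 0.0707), which did not pass. The third pair was Cck and Chga, with r = 0.72 (rho 0.738, permutation p = 0.00094 and 0.00085, adjusted 0.00846 and 0.00765), and 0.57 without the 2 farthest libraries. No relation of Gcg with the first set passed: its r was -0.06 with Pyy (permutation adjusted p = 0.827), -0.08 with Nts (0.827) and -0.26 with Sct (0.438). The lowest of all pairs was Nts with Tac1 at -0.41 (permutation adjusted p = 0.357). Although Gcg and Pyy are both L cell hormones, the log2 difference of Gcg over Pyy ran from 0.42 to 2.34 in lactating females, from 0.01 to 1.64 in virgin males and from 0.25 to 1.71 in virgin females.

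**Figure D3:**
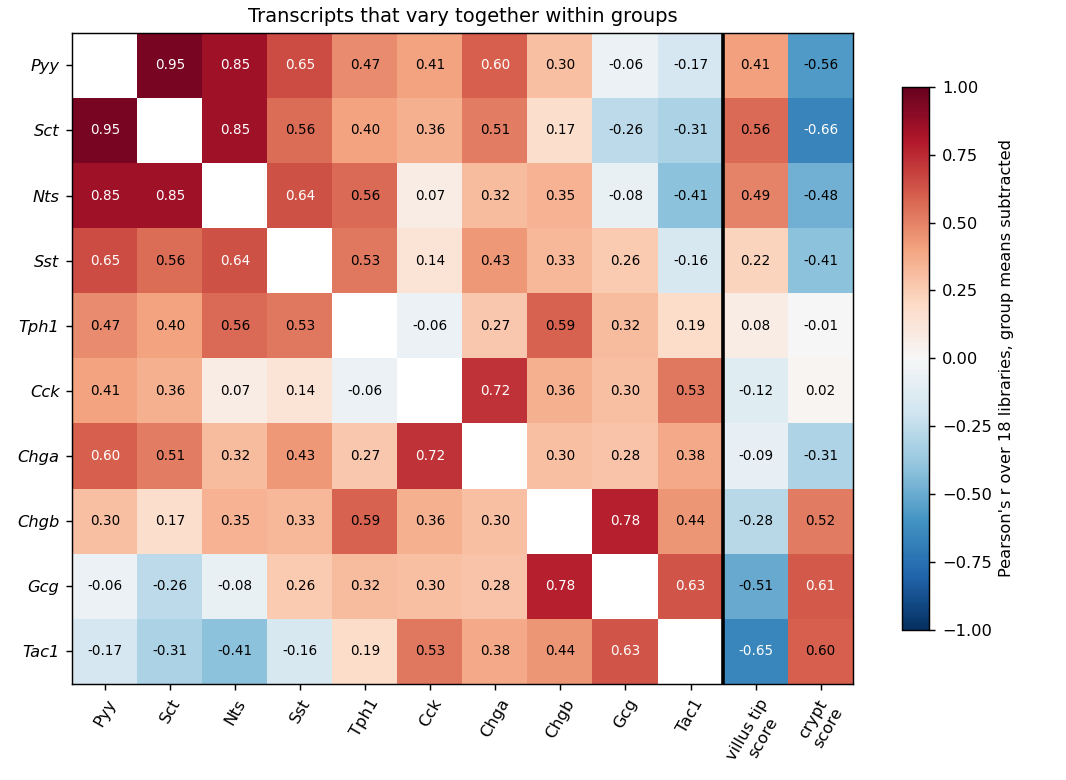
Pearson's r over 18 libraries between each pair of transcripts, and with the villus tip and crypt scores at the right, after each group's mean was subtracted (red positive, blue negative). Pyy, Sct and Nts form a block with r of 0.85 to 0.95, and Gcg pairs with Chgb at 0.78.

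No relation of a member with the crypt to villus axis passed the test. Of 20 relations (10 transcripts with 2 scores), 0 had a permutation adjusted p under 0.05, and 7 had an unadjusted one under 0.05. With the crypt score, the mean log2 CPM of the 8 crypt and cycling genes, r was 0.61 for Gcg (rho 0.608, permutation adjusted p = 0.0773 and 0.0644), 0.60 for Tac1 (rho 0.593, 0.0773 and 0.0644) and 0.52 for Chgb (rho 0.6, 0.113 and 0.0644). It was -0.66 for Sct (rho -0.711, permutation p = 0.00471 and 0.00271, adjusted 0.0773 and 0.0542), -0.56 for Pyy (rho -0.589, 0.0876 and 0.0644) and -0.48 for Nts (rho -0.467, 0.133 and 0.116). With the villus tip score, r was -0.65 for Tac1 (rho -0.626, permutation adjusted p = 0.0773 and 0.0644) and 0.57 for Sct (rho 0.587, 0.113 and 0.0745). Tph1, Cck and Chga had r between -0.31 and 0.08 with both scores. Values without some libraries again kept the group means of all libraries. Without the 2 farthest libraries the crypt relation was 0.68 for Gcg, 0.51 for Tac1, -0.59 for Sct, -0.47 for Pyy and -0.28 for Nts. Without virgin female 2 and virgin male 6 the villus tip relation was 0.80 for Sct, 0.70 for Nts and 0.72 for Pyy (0.49 for Nts and 0.41 for Pyy with them), and these were not tested again. The relations of these 3 transcripts did not hold within every group. In virgin males, r with the crypt score was -0.01 for Sct, 0.14 for Pyy and 0.09 for Nts, and r with the villus tip score was -0.15 for Sct, -0.47 for Pyy and -0.18 for Nts. With the villus tip score r was 0.93 for Sct, 0.86 for Pyy and 0.77 for Nts in lactating females, and 0.80, 0.67 and 0.86 in the same order in virgin females (6 libraries in each group, not tested). The scores themselves had r = -0.73 with each other, and 20.3% of all tested genes had r above 0.5 with the villus tip score and 19.9% below -0.5, so a correlation of this size is common in these libraries. The crypt score averaged 4.99 ± 0.65 in lactating females, 5.54 ± 0.18 in virgin males and 5.10 ± 0.66 in virgin females (mean ± SD, n = 6 each).

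**Figure D4:**
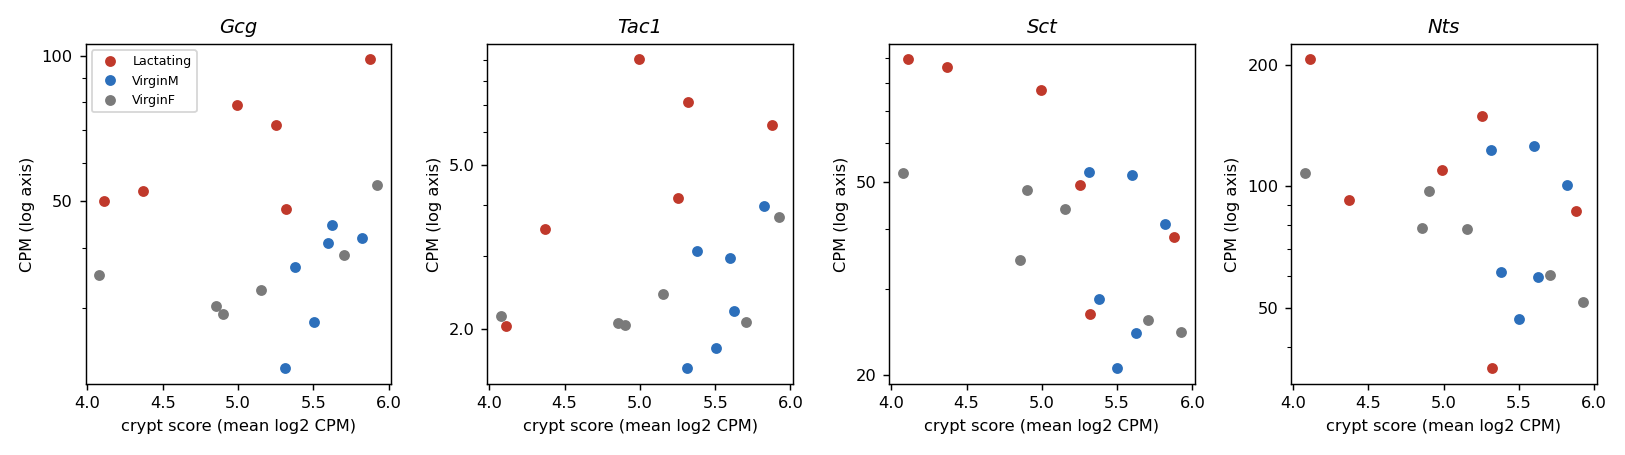
CPM of Gcg, Tac1, Sct and Nts (vertical log axes) against the crypt score, the mean log2 CPM of 8 crypt and cycling genes, in each of the 18 libraries. Within groups r was 0.61 for Gcg, 0.60 for Tac1, -0.66 for Sct and -0.48 for Nts, none of which passed. Levels of the groups at matched scores were not compared.

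Other genes with known roles in enteroendocrine cells or in serotonin handling were counted from lists, also chosen with earlier results of these data known. The lists are not limited to genes found only in these cells. Maoa, for example, averaged 770 CPM in lactating females, against 64.2 CPM for Chga. Which cells of these libraries held each listed gene was not tested. By edgeR 0 were called in any list and comparison. It called 0.0578% of all genes against virgin females, 0.764% against virgin males and 0.0835% between the virgin groups. DESeq2 called 2 genes higher, Stx1a and Pam. It called 0.302% of all genes higher against virgin females and 2.11% against virgin males. Positive estimates were held by 49.4% of all genes against virgin females, 48.9% against virgin males and 48% in virgin males against virgin females. Of 14 other granule and exocytosis genes, all tested, 11 had positive estimates against virgin females (median log2 fold change 0.28) and 12 against virgin males (median 0.21), and at an unadjusted p under 0.05 4 were higher against virgin females, where 3.4% of all genes were, and 3 against virgin males, where 10.5% of all genes were. Stx1a, the syntaxin of the vesicle fusion machinery, had the smallest p. It was 3.83, 4.96 and 7.07 CPM (lowest, median and highest) in lactating females, 2.26, 2.51 and 3.98 CPM in virgin males, and 1.62, 2.16 and 3.75 CPM in virgin females. All 6 lactating libraries exceeded all 6 virgin female libraries, and the log2 fold change was 1.14 (SE 0.22, edgeR adjusted p = 0.0594). Against virgin males it was 0.86 (SE 0.21, edgeR adjusted p = 0.0733). DESeq2 called Stx1a in both comparisons (adjusted p = 0.000321 against virgin females and 0.00722 against virgin males). Its partner Snap25, at under 1 CPM, was 0.80 (SE 0.30, edgeR adjusted p = 0.634) against virgin females and 0.83 (SE 0.30, adjusted p = 0.214) against virgin males.

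Of 6 prohormone processing genes, 5 were tested, and 5 had positive estimates against virgin females and 4 against virgin males. At an unadjusted edgeR p under 0.05, 1 was higher against virgin females and 3 against virgin males, against 3.4% and 10.5% of all genes. Pam, which amidates peptide ends, had a log2 fold change of 0.81 (SE 0.23, edgeR adjusted p = 0.116, DESeq2 adjusted p = 0.0285) against virgin males, with 27.8 ± 14.3 CPM in lactating female and 15.8 ± 1.48 CPM in virgin male libraries (mean ± SD, n = 6 each). Pcsk1n, the inhibitor of the prohormone convertase Pcsk1, was at 0.86 (SE 0.32, edgeR adjusted p = 0.223) against virgin males, and Cpe, the carboxypeptidase of the granule, at 0.38 (SE 0.15, edgeR adjusted p = 0.677) against virgin females. Of 6 other gut hormones, 3 were tested, and Gip, the K cell hormone, had a log2 fold change of -0.39 (SE 0.25, edgeR adjusted p = 0.437) against virgin males and 0.47 (SE 0.25, edgeR adjusted p = 0.565) in virgin males against virgin females. Ghrl, the ghrelin precursor, was at 0.39 (SE 0.23, edgeR adjusted p = 0.398) against virgin males.

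The other genes of serotonin handling had estimates on both sides of 0. Of 9 tested genes of 10, 6 had positive and 3 negative estimates against virgin males, with a median of 0.02. Against virgin females 4 had positive and 5 negative estimates, with a median of -0.07. Slc6a4, the serotonin transporter of the absorptive epithelium, averaged 64.4 ± 6.61 CPM in lactating and 76.9 ± 8.92 CPM in virgin female libraries (log2 fold change -0.26, SE 0.11, edgeR adjusted p = 0.731). Maoa, which breaks serotonin down, was at -0.44 (SE 0.18, edgeR adjusted p = 0.701), and Gch1, which starts the synthesis of the cofactor that Tph1 needs, at 0.69 (SE 0.31, edgeR adjusted p = 0.74). Of 18 transcription factors of the lineage, 15 were tested. In lactating females 12 had positive estimates against virgin females (median 0.32) and 9 against virgin males (median 0.12). In virgin males against virgin females 14 were positive (median 0.16). At an unadjusted p under 0.05 there were 0 in any of the 3. Of all genes, 3.4% were higher at that threshold against virgin females and 10.5% against virgin males. Between the virgin groups 8.32% of all genes passed in either direction. Neurog3, which marks newly specified cells, averaged 0.669 ± 0.358 CPM in lactating females, 0.729 ± 0.211 CPM in virgin males and 0.607 ± 0.353 CPM in virgin females (mean ± SD, n = 6 each). Of 15 nutrient and signal receptors, 11 were tested, and 8 had positive estimates against virgin females (median 0.34) and 9 against virgin males (median 0.31). Against virgin females 1, Cnr1, was higher at an unadjusted edgeR p under 0.05 (0.85, SE 0.33, edgeR adjusted p = 0.647), against 3.4% of all genes. Against virgin males 0 were higher at that threshold, against 10.5% of all genes. Virgin males against virgin females had medians of -0.34 for other hormones, 0.05 for processing, -0.01 for granule genes, -0.08 for serotonin handling, 0.16 for transcription factors and 0.07 for receptors.

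**Figure D5:**
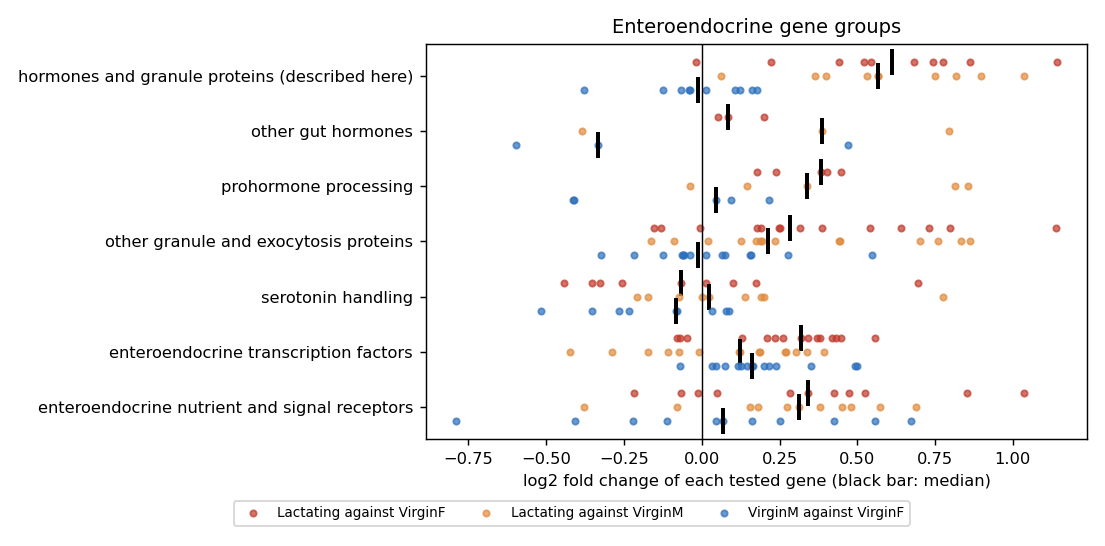
Log2 fold change of each tested gene (points, horizontal axis) in 7 gene lists for the 3 comparisons, with the median of each list as a black bar. The lists are not limited to genes found only in enteroendocrine cells. The 10 hormones and granule proteins have medians of 0.61 and 0.57 in the comparisons with lactating females, and serotonin handling has medians near 0.

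The genes whose library-to-library pattern was most like that of Chga were taken from all 15571 other tested genes, outside the lists, by Pearson r over 18 libraries with group means subtracted. They were E2f5 (r = 0.84), Wrap73 (0.83), Pdzk1ip1 (0.78), Gnptg (0.75), Washc1 (0.75), Ethe1 (0.73), Urah (0.71), Spg21 (0.71), Hexa (0.70) and Tjp3 (0.70), against a median of -0.01 over all genes. Among the members, Cck had rank 7 (r = 0.72) and Pyy rank 134 (r = 0.60) of all genes in likeness to Chga, while Chgb, the other granin, had rank 3000 (r = 0.30). These ranks are descriptions of 18 libraries and carry no test.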

How the data were processed

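RNA from sorted ileal epithelial cells was sequenced in 18 libraries, 6 each from lactating females, virgin males and virgin females. The authors deposited 1 table per library with a raw read count for each of 47729 Ensembl gene identifiers, none of which is a row without a gene. The submitters' processing notes name the aligner HISAT2 2.0.4, featureCounts of Subread 2.0.0, FastQC 0.11.5, DESeq2 1.24.0 and the build GRCm38. The library kit enriched poly(A) RNA and kept strand, per the labels' protocols. The strand setting of the counting and the annotation release are not given in the sources used here. Symbols came from GENCODE M21, which names 47310 of the identifiers. None of the 153 pairs of libraries agreed within sampling noise (lowest chi-square per degree of freedom 35.6), so 18 samples were counted.

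A filter on low counts (filterByExpr) left 15572 genes, all 10 members among them, each detected in every library. One edgeR 4.0.16 quasi-likelihood model (R 4.3.3) with a mean per group and TMM scaling was fitted to all 18 libraries. P-values were adjusted over all genes tested, with calls at an adjusted p under 0.05. Standard errors are the absolute log2 fold change over the square root of F. A count of 3, the floor, equals 0.0612 to 0.0868 CPM. Reads carry no molecular identifiers, so it covers counting error only. Alternatives were DESeq2 1.42.0, RLE scaling, 2 other filters, limma 3.58.1 voom with sample weights, smaller sets of libraries, the crypt or villus tip score as a covariate, a replicate block and leaving out each library. Correlations used log2 CPM with a prior count of 2, group means subtracted, and 100000 permutations within groups. The model was also run on simulated counts with added fold changes, a check of the code on which no result here rests.

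The members and lists were chosen with earlier results of these data known. All 10 members are named. Of each other list, the 3 genes with the smallest p in any comparison could be named, some are not reported here, and Neurog3, outside that rule, was named as background after its values were seen. Genes most like Chga are the 10 with the highest r outside the lists, predicted-gene names left out.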

Additional observations from a re-analysis of the deposited data

Results flagged for a closer look

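Tac1 in virgin female 4 stood far above its group, at 3.73 CPM against 2.43 CPM in the next highest virgin female library. The gap was 0.774 of the group's whole range, above Dixon's 95% critical value for 6 samples. Of 30 sets of a member and a group, 1 was flagged, and chance alone flags about 1 in 20.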

How the results depend on the processing

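Every member kept the sign of its estimate under all 28 alternatives against virgin females except Sst, and against virgin males except Cck. Against virgin females 0 members were called in the main model, 3 with DESeq2 and 1 each with the crypt score (called the cell cycle score in the plan) or the villus tip score as a covariate, and 0 in each of the 18 fits without 1 library. Against virgin males the count was 1, but 3 with DESeq2 and with limma voom, 2 with either score as a covariate, 0 with only the 2 groups fitted and 0 without both virgin female 2 and virgin male 6. Leaving out 1 library gave 0 to 2 (0 in 14 of 18 fits). For any difference among the 3 groups it was 0, but 4 with DESeq2, 1 with RLE scaling, 1 with no filter, 1 with voom, 2 with either score, and 0 to 2 without 1 library. Between virgin males and virgin females it was 0 in every fit. Over all genes, lactating against virgin female calls were 9, but 69 with DESeq2, 15 with the filter of 1 CPM in 6 libraries, 2 with voom, 1 with 2 groups fitted, 1 without both libraries, 32 with the crypt score, 16 with the villus tip score and 2 to 16 without 1 library. Virgin male against virgin female calls were 13, but 30 with DESeq2, 20 with no filter, 20 with voom and 10 to 18 without 1 library. Lactating against virgin male calls were 119, but 410 with DESeq2, 217 with voom, 61 without both libraries, 70 with the villus tip score and 62 to 311 without 1 library. The cause of these differences was not tested.

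Estimates that changed sign were all small. Against virgin females Sst was 0.075 with voom, 0.014 without both libraries and -0.116 to 0.155 without 1 library. Against virgin males Cck was -0.125 to 0.168 without 1 library. In virgin males against virgin females the voom values were 0.012 for Gcg, -0.069 for Nts and -0.017 for Chga. Without both libraries Nts was -0.018 and Chga -0.115. With the crypt score Pyy was 0.147, Sct 0.288 and Tac1 -0.155, and with the villus tip score Sct was 0.132 and Tac1 -0.027. Without 1 library the ranges were -0.111 to 0.104 for Gcg, -0.016 to 0.249 for Nts, -0.199 to 0.053 for Sct, -0.054 to 0.277 for Tac1, -0.159 to 0.092 for Tph1 and -0.054 to 0.125 for Chga. Sst in virgin males against virgin females was -0.619 to -0.242 without 1 library.

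The main model did not pair libraries by replicate number, and the labels do not say whether same-numbered libraries share a batch. Deviations of the 18 same-numbered pairs had r of -0.219 to 0.477 (median 0.039, against -0.045 for other pairs), and 5 of 18 libraries correlated best with their own number. With the replicate block, members called were 0 against virgin females, 1 against virgin males, 0 between the virgin groups and 1 for any difference, and calls over all genes were 1, 114 and 11 in that order of comparisons. Gcg against virgin males was 0.898 with the block (edgeR adjusted p = 0.0157).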
